A study of Homo sapiens with 6 samples.

Results

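Hypoxia-inducible factors (HIFs) are the transcription factors by which cells respond to low oxygen, and the genes described here are 9 of their known targets that do not belong to glycolysis: NDRG1, ADM, VEGFA, ANGPTL4, P4HA1, P4HA2, ANKRD37, CA9 and CA12. They were chosen by gene symbol, with earlier results of these data known, and each symbol matched 1 of the 58735 gene rows of the deposited count table. Of the 9, 8 had enough counts to be tested among 15160 genes, and CA9 did not. The libraries came from the established human kidney cancer line ACHN, labelled as clear cell renal cell carcinoma of wild-type genotype. A total of 3 curcumol-treated and 3 control cultures gave 1 poly(A) RNA-seq library each. Curcumol is a sesquiterpenoid of Curcuma rhizomes, given at a concentration described only as effective. The labels call the control a vehicle control, whereas the design text says that it received no drug. Dose, duration and the oxygen level of the cultures are not stated in the labels.

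HIF is a dimer of an oxygen-regulated alpha subunit, encoded by HIF1A or EPAS1, and the stable partner ARNT. When oxygen is plentiful, prolyl hydroxylases of the EGLN family mark the alpha subunit, the VHL protein binds it, and it is degraded. When oxygen is scarce or VHL is lost, as in most clear cell renal carcinomas, the alpha subunit persists and activates genes for blood vessel growth, pH control, collagen modification and metabolism. ACHN is generally described as a line with intact VHL. The targets are not read by HIF alone: NDRG1, VEGFA, ADM and ANGPTL4 are also known to respond to other stress and nutrient signals.

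Totals ran from 16962012 to 17827433 counts per library. The renal markers PAX8, PAX2, LHX1, KRT8, KRT18, VIM and CDH2 were detected in every library, CDH6 had at most 1 count, and the 11 renal markers used summed to 2874 to 3286 CPM in curcumol and 4188 to 4523 CPM in control. Of these 11, 7 fell and MME alone rose, with 26, 32 and 23 counts in curcumol, against 10, 10 and 14 in control. By the test given below, 40.3% of all tested genes fell and 39.4% rose. CPM is the count per 1000000 counts of the tested genes in a library, scaled by the TMM method that balances libraries of different composition. Among genes typical of clear cell tumours, NDUFA4L2 had 21 to 35 counts in curcumol and 30 to 39 in control, and CA9 had at most 3 in any library. The endothelial markers PECAM1, CDH5, VWF, KDR and CLDN5 had at most 4 counts in any library. The sum over the 6 endothelial markers, 68.0 to 76.4 CPM in curcumol and 36.5 to 43.5 in control, came mostly from EGFL7. Among 6 immune markers CD3E was at 0 and CD14 made up most of a sum of 5.12 to 5.84 CPM in curcumol, against 0.108 to 0.258 in control. The 7 fibroblast markers summed to 36.8 to 55.3 CPM in curcumol and 161 to 168 in control, mostly THY1, which fell as COL1A1 did. COL3A1 rose in the same list, with 28, 58 and 23 counts in curcumol, against 0, 0 and 0 in control, and so did PDGFRB, with 77, 123 and 80 counts in curcumol, against 54, 45 and 43 in control. The part of these marker differences in the results below was not tested.

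In curcumol-treated cells 7 of the 8 tested HIF targets rose and 1, CA12, fell (edgeR quasi-likelihood test, two-sided, Benjamini-Hochberg adjusted p under 0.05 over all genes tested). Over all tested genes the same test called 39.4% as risen and 40.3% as fallen, or 79.7% in all, so a call by itself was the common outcome in this comparison. A rise of at least 2-fold was called for 6 of the 8, against 21.3% of all tested genes. When library totals alone set the scale, ANGPTL4 stood at a log2 fold change of 0.97 and the count was 5 of the 8, against 16.2%. The median log2 fold change of the 8 was 1.45, beside -0.017 over all tested genes. Because the targets were chosen with earlier results of these data known, these contrasts describe them and test nothing. The curcumol and control libraries did not overlap for any of the 8, as for 81.0% of all tested genes, with curcumol above control for 7 (39.8% of all tested genes) and below it for 1 (41.1%). Total RNA per cell was not measured, so each value is a share of the library's RNA, and fewer cells of one kind and less RNA per cell cannot be told apart.

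**Figure D1:**
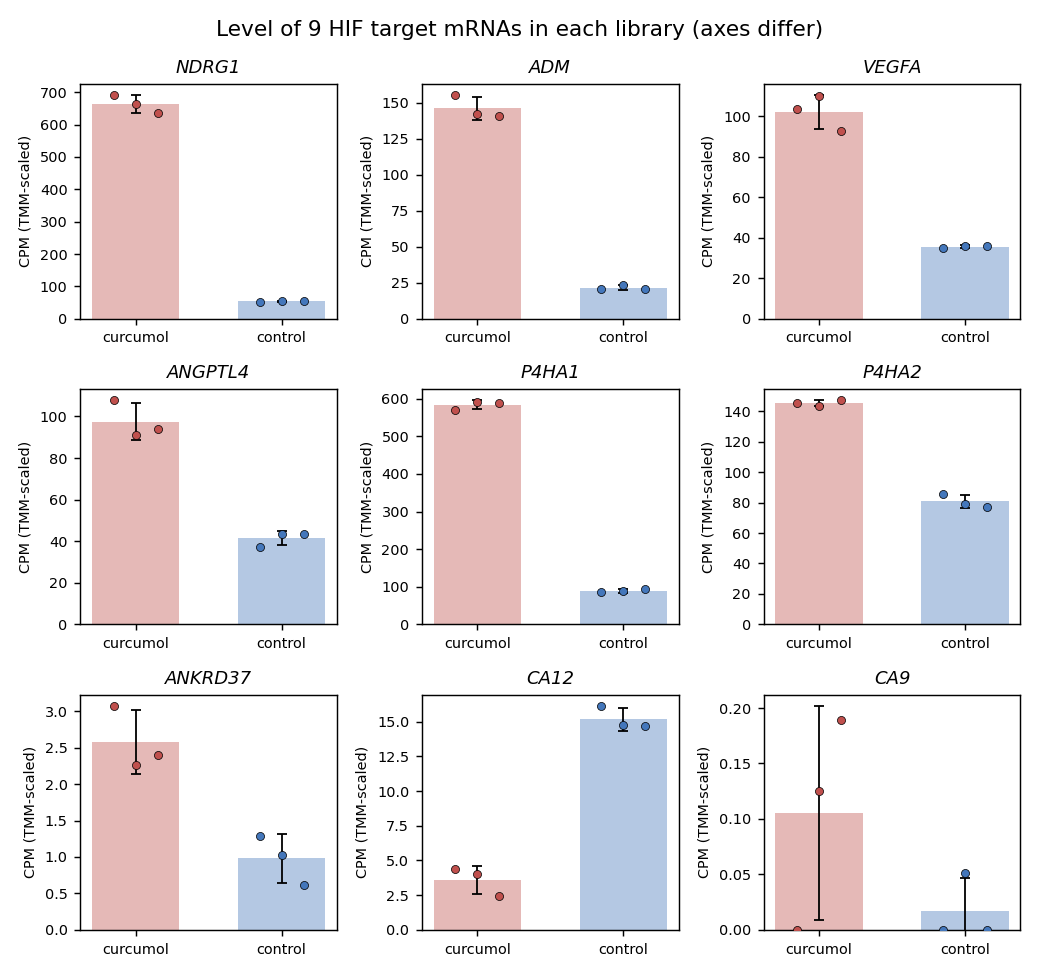
Level of each of the 9 HIF target mRNAs in TMM-scaled CPM, 1 panel per gene with its own axis from 0. Points are the 3 curcumol (red) and 3 control (blue) libraries, bars the means and whiskers the SD. The 3 curcumol libraries lie above all controls for 7 genes and below them for CA12, whereas CA9 stays below 0.2 CPM in every library.

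HIF binds DNA at a short core that reads ACGTG or GCGTG on either strand. RefSeq promoter sequences (GRCh38.p14) were on hand for 7 of the 9 genes, and NDRG1 and VEGFA were the ones without. Of these 7, 6 held at least 1 such core in the 250 bases before the annotated start. The share was 43.2% over all 35116 RefSeq promoters and 54.6% over those of tested genes. ACGTG was present in 4 of the 7, against 18.5% of all promoters and 22.2% of those of tested genes. GCGTG was present in 2 of the 7, against 32.2% and 43.0%. A match is a description of the letters and not a binding site. The 2 prolyl hydroxylase genes and the 2 carbonic anhydrase genes are shown as pairs of relatives, and ANKRD37 because it held the most matches. Letters of a core, read on either strand, are in capitals, and each sequence ends at the last base before the start.
P4HA1: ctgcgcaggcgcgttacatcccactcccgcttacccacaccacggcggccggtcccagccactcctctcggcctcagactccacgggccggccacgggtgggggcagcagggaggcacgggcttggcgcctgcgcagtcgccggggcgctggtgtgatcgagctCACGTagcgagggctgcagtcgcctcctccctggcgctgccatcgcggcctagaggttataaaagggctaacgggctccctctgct
P4HA2: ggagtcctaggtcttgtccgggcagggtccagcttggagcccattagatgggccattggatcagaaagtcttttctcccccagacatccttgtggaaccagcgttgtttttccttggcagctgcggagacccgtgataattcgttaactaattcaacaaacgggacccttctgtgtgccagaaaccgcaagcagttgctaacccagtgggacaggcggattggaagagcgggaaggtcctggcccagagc
CA9: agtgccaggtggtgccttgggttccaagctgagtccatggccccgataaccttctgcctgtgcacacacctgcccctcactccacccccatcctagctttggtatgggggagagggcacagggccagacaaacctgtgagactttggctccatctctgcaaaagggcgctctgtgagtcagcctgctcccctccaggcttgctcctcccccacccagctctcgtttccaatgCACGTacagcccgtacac
CA12: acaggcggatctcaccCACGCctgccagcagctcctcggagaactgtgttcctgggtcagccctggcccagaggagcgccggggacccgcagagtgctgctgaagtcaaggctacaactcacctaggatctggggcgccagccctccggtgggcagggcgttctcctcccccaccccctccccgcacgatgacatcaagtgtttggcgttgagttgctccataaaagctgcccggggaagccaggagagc
ANKRD37: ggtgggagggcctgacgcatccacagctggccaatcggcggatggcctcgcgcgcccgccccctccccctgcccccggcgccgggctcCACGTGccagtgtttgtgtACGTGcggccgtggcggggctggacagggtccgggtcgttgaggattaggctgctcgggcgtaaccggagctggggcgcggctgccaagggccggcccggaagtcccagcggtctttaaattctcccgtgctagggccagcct
The windows are chr10:73096867-73097116, minus strand, for P4HA1, chr5:132227092-132227341, minus strand, for P4HA2, chr9:35673678-35673927, plus strand, for CA9, chr15:63381847-63382096, minus strand, for CA12, and chr4:185396591-185396840, plus strand, for ANKRD37. P4HA1 has 1 ACGTG core, on the reverse strand 86 to 82 bases before the start, and P4HA2 has none of the cores in this window. The P4HA2 window belongs to a start 68224 bases inside the gene as GENCODE 29 draws it, and its outermost start was not searched. For the other 6 genes the 2 annotations' starts lie 72 to 866 bases apart. CA9 has 1 ACGTG core on the reverse strand 18 to 14 bases before the start. CA12 has no ACGTG and 1 GCGTG, on the reverse strand 234 to 230 bases before the start. ANKRD37 has 3 ACGTG matches, of which 2 are the strands of 1 palindrome, CACGTG, the E-box that other factors also bind. The E-box is held by 6.34% of all promoters and 8.22% of those of tested genes.

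NDRG1 encodes a stress-induced cytosolic protein long used as a marker of low oxygen. It had the largest rise of the 8 tested genes. NDRG1 (ENSG00000104419, chromosome 8, 133237171 to 133302022, GRCh38, GENCODE 29) stood at 692, 663 and 635 CPM in the curcumol libraries, against 53.2, 53.8 and 55.8 CPM in the control libraries. The lowest curcumol library was 11.4-fold above the highest control. The fold change was 12.2, a log2 fold change of 3.61 ± 0.06 (SE; adjusted p = 3.95e-21 by edgeR), and 344 of the 15160 tested genes had a larger one. Of its relatives in the NDRG family, NDRG3 fell by 1.26 on the log2 scale (SE 0.11) and NDRG4 rose by 0.56 ± 0.12, or 1.16 with an offset for GC content, a smooth correction per library for the base composition of genes. NDRG2 did not pass, with 1, 22 and 18 counts in curcumol, against 18, 19 and 25 in control.

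Of the secreted factors among the targets, ADM encodes adrenomedullin, a peptide that widens blood vessels. ADM (ENSG00000148926, chromosome 11, 10304680 to 10307397) had 156, 142 and 141 CPM in curcumol, against 20.4, 23.6 and 20.8 CPM in control. All 3 curcumol libraries were high, the lowest of them 5.99-fold above the highest control. The log2 fold change was 2.76 ± 0.08 (SE; adjusted p = 7.8e-18 by edgeR), a 6.77-fold rise. Its receptor is built from CALCRL and a RAMP protein. CALCRL rose by 1.54 ± 0.22 on the log2 scale, with 100, 113 and 122 counts in curcumol, against 46, 31 and 62 in control, and is named here after its values were seen. RAMP1, RAMP2 and RAMP3 had too few counts to be tested, at most 11 in any library. The related ligand gene ADM2 changed the other way, by -0.61 ± 0.12, but stood at 0.10 with the GC offset and did not pass there (edgeR adjusted p = 0.402).

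VEGFA encodes the main growth factor for blood vessels and is the best known angiogenic HIF target. VEGFA (ENSG00000112715, chromosome 6, 43770184 to 43786487) had 103, 110 and 92.8 CPM in curcumol, against 34.97, 36.1 and 35.9 CPM in control. The control libraries were close together, and the lowest curcumol library was 2.57-fold above the highest of them. Its log2 fold change was 1.52 ± 0.08 (SE; adjusted p = 7.93e-14 by edgeR), or 2.86-fold. The other genes of the VEGF system went both ways, with 2 of 6 tested members higher and 4 lower and a median log2 fold change of -1.06. Over all tested genes 39.4% were called as higher and 40.3% as lower. In the VEGF list 4 were called as higher when no filter on low counts was used. PGF, a ligand of the VEGF receptor FLT1, rose by 2.90 ± 0.15, with 20.4 ± 2.58 CPM in curcumol and 2.72 ± 0.302 CPM in control (SD, n = 3 each). VEGFB fell by 1.57 on the log2 scale (SE 0.13) and stood at -0.74 with the GC offset, and the co-receptor genes NRP2 and NRP1 fell by 2.49 (SE 0.08) and 1.33 (SE 0.08). NRP2 stood at 50.4 ± 6.08 CPM in curcumol and 282 ± 9.43 CPM in control (SD, n = 3 each). The receptor genes FLT1, KDR and FLT4 had too few counts to be tested. FLT1 had 11, 4 and 13 counts in curcumol, against 0, 0 and 1 in control.

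ANGPTL4 encodes a secreted inhibitor of lipoprotein lipase. ANGPTL4 (ENSG00000167772, chromosome 19, 8363289 to 8374373) had 108, 91.0 and 93.9 CPM in curcumol, against 37.4, 43.6 and 43.3 CPM in control. The groups were separated by a factor of 2.08 between the lowest curcumol and the highest control library. The log2 fold change was 1.23 ± 0.08 (SE; adjusted p = 9.16e-12 by edgeR), and it was 1.96 with the GC offset, the widest shift of a target among the settings run. None of the 10 genes of the angiopoietin list besides it, the lipase LPL among them, had enough counts to be tested. Their highest count in any library was 10, for ANGPT2.

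Collagen is made stable by hydroxylation of its prolines, and P4HA1 and P4HA2 encode alternative catalytic subunits of the enzyme that does this. P4HA1 rose far more than P4HA2. P4HA1 (ENSG00000122884, chromosome 10, 73007217 to 73096974) had 570, 591 and 590 CPM in curcumol, against 84.8, 88.0 and 93.7 CPM in control. All curcumol libraries stood at least 6.08-fold above the highest control. The log2 fold change was 2.72 ± 0.06 (SE; adjusted p = 1.43e-19 by edgeR), or 6.57-fold. P4HA2 (ENSG00000072682, chromosome 5, 132191838 to 132295315) had 145, 144 and 147 CPM in curcumol, against 85.8, 79.2 and 77.2 CPM in control. It had the smallest rise of the 7, with a log2 fold change of 0.85 ± 0.06 (SE; adjusted p = 6.86e-11 by edgeR), or 1.80-fold, and still no overlap between the groups. It shares 548 of its 8502 exonic bases with P4HA2-AS1 on the other strand, which had at most 4 counts in any library.

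The ratio of the counts of both genes within a library does not depend on the scaling of libraries, but it carries no GC offset. With that offset the log2 fold change was 2.27 for P4HA1 and 0.88 for P4HA2. P4HA1 had 3.92, 4.12 and 4.01 counts per count of P4HA2 in the curcumol libraries, against 0.988, 1.11 and 1.21 in the control libraries. On the log2 scale the ratio was 2.005 ± 0.036 in curcumol and 0.14 ± 0.15 in control (SD, n = 3 each), a difference of 1.87. The 3 curcumol libraries all lay above the 3 controls, and an exact permutation test, two-sided, gave p = 0.1, which is the smallest that 3 against 3 allows.

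**Figure D2:**
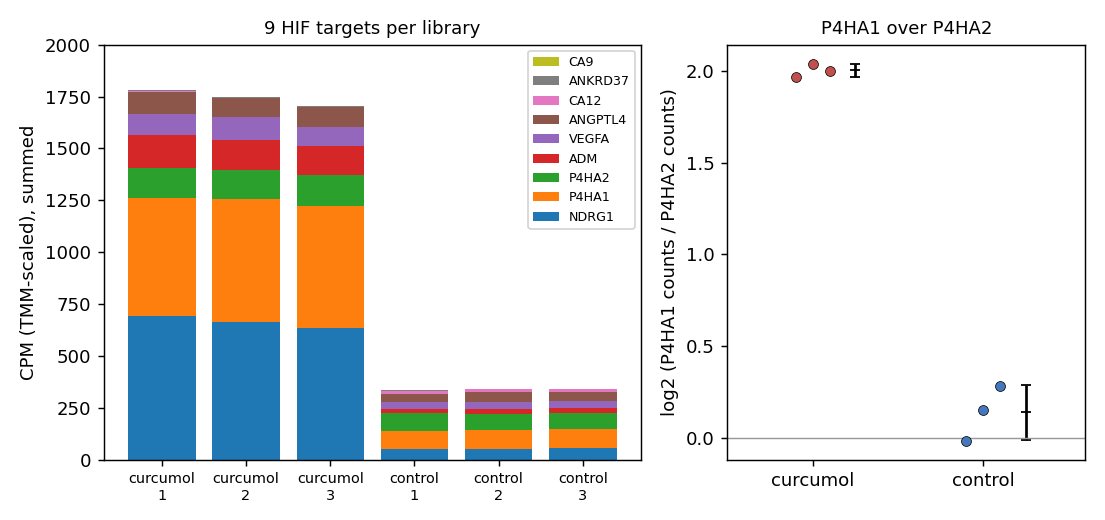
Left, summed TMM-scaled CPM of the 9 HIF targets in each library, stacked by gene in the colours of the legend. Right, log2 ratio of P4HA1 counts to P4HA2 counts in each library (points) with mean and SD (black), near 2.005 in curcumol and 0.14 in control.

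The other genes of collagen hydroxylation went both ways. Of the 11 in that list 2 rose, 5 fell and 4 did not pass, with a median of -0.13. The shares over all tested genes were 39.4% risen and 40.3% fallen. PLOD2, a lysyl hydroxylase and also a HIF target, rose by 2.37 ± 0.07 on the log2 scale, with 330 ± 28.2 CPM in curcumol and 63.6 ± 2.87 CPM in control (SD, n = 3 each), and stood at 1.65 with the GC offset. Of the prolyl 3-hydroxylase family, P3H3 fell by 2.99 on the log2 scale (SE 0.10) and P3H2 by 1.01 (SE 0.09). P3H4, a non-enzymatic member of that family, fell by 3.14 (SE 0.13), whereas P3H1 stood at -0.13 and did not pass. With the GC offset P3H3 stood at -2.32 and P3H4 at -2.47. P4HB, the subunit that P4HA1 and P4HA2 share, stood at 0.19 ± 0.06 (edgeR adjusted p = 0.0113) with overlapping libraries, and at -0.079 when library totals alone set the scale. Without control replicate 3, without curcumol replicate 1 or with library totals, 1 gene of this list rose, and with a GC offset 4 did. With library totals 8 fell.

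ANKRD37 encodes a small ankyrin repeat protein and is a direct HIF1A target. ANKRD37 (ENSG00000186352, chromosome 4, 185396021 to 185400628) was scarce, with 48, 36 and 38 counts in curcumol, against 24, 20 and 12 in control, or 3.07, 2.26 and 2.40 CPM against 1.29, 1.03 and 0.619 CPM. Curcumol libraries were the higher ones without overlap. The log2 fold change of 1.39 ± 0.32 (SE; adjusted p = 0.000542 by edgeR) had the widest error of the 8. ANKRD37 shares 909 of its 2580 exonic bases with UFSP2 on the other strand. UFSP2 had 185, 161 and 185 counts in curcumol, against 215, 199 and 235 in control, a log2 fold change of -0.014 ± 0.13 that did not pass. Without a stated use of strand, reads from the shared bases cannot be assigned to either gene.

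The carbonic anhydrases CA9 and CA12 are enzymes of the cell surface that help a tumour cell to export acid, and CA9 is the most strongly HIF-dependent of the 9 genes in many cell types. CA9 (ENSG00000107159, chromosome 9, 35673856 to 35681159) had 0, 2 and 3 counts in curcumol, against 0, 1 and 0 in control. Summed over each group this is 0.0961 CPM of unscaled totals (95% exact Poisson interval 0.0312 to 0.224) in curcumol and 0.0191 (0.000483 to 0.106) in control. The intervals cover counting error only and overlap, no library was above 3 counts, and a difference was not detectable at this depth. The gene shares 643 of its 1670 exonic bases with ARHGEF39 on the other strand, which had 44, 31 and 38 counts in curcumol, against 255, 233 and 259 in control. ARHGEF39 stood at a log2 fold change of -2.45 ± 0.17 (SE) and was called as fallen. Since the use of strand is not stated, reads from the bases that CA9 shares with it cannot be assigned to either gene.

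CA12 was the one target that fell. CA12 (ENSG00000074410, chromosome 15, 63321378 to 63382161) had 68, 64 and 39 counts in curcumol, against 300, 286 and 284 in control, or 4.36, 4.02 and 2.46 CPM against 16.1, 14.8 and 14.7 CPM. The lowest control library was 3.37-fold above the highest curcumol library, and curcumol replicate 3 was the lowest of all. The log2 fold change was -2.07 ± 0.17 (SE; adjusted p = 2.48e-10 by edgeR), a 4.20-fold lower level in curcumol. Of the 13 other carbonic anhydrase genes, 5 were tested, of which CA2, CA5B and CA14 rose and 2 did not pass. Among all tested genes 39.4% rose. With library totals 1 member of the carbonic anhydrase list fell, and with a GC offset 1 did as well. CA2, a cytosolic form and the one member with a mean of at least 100 counts that rose, had 16.8 ± 2.14 CPM in curcumol and 6.75 ± 0.716 CPM in control (SD, n = 3 each), a log2 fold change of 1.32 ± 0.14.

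**Figure D3:**
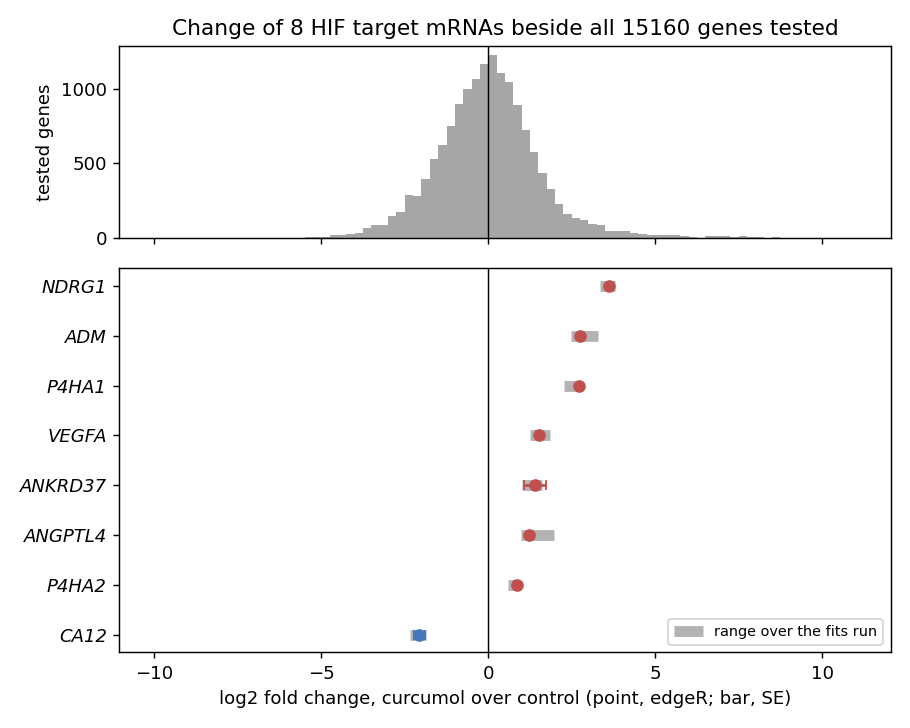
Top, log2 fold changes of all 15160 tested genes (curcumol over control). Bottom, those of the 8 tested HIF targets with their SE, and in grey the range over the main and alternative fits. NDRG1 at 3.61, ADM at 2.76 and P4HA1 at 2.72 stand to the right, P4HA2 at 0.85 nearest to 0 and CA12 at -2.07 to the left.

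Levels of different genes were compared per kilobase of mRNA, with the median length of the coding transcripts in the basic set of GENCODE. In control the most abundant were P4HA2 at 33.1, VEGFA at 31.9 and P4HA1 at 31.8 CPM per kilobase, and the ranges of these 3 over the libraries overlapped. NDRG1 followed at 24.9, ANGPTL4 at 23.1, ADM at 17.2, CA12 at 5.53 and ANKRD37 at 0.860 CPM per kilobase. In curcumol the order was NDRG1 at 304, P4HA1 at 209, ADM at 117, VEGFA at 91.3, P4HA2 at 59.6, ANGPTL4 at 54.4, ANKRD37 at 2.26 and CA12 at 1.32 CPM per kilobase, and CA9 came last in both groups. P4HA2 and ANGPTL4 were the only neighbours there whose ranges overlapped. The order depends on the length used: VEGFA joins 14431 exonic bases but has a median transcript of 1116. Per kilobase of joined exons P4HA1, at 189 in curcumol, stood above NDRG1, at 67.5. On that scale the control order began with P4HA1 at 28.7, ANGPTL4 at 16.7 and P4HA2 at 9.50, and VEGFA stood at 2.47.

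The 9 genes together took 0.159% ± 0.00205 of all counts in curcumol and 0.0371% ± 0.000537 in control (SD, n = 3 each). NDRG1 and P4HA1 made up 71.5% ± 0.571 of the counts of the 9 genes in curcumol and 42.2% ± 1.31 in control. The coefficient of variation of CPM over the curcumol libraries was 1.21% for P4HA2, 2.07% for P4HA1, 4.32% for NDRG1, 5.52% for ADM, 8.34% for VEGFA and 9.18% for ANGPTL4. For the scarcer ANKRD37 and CA12 it was 16.9% and 28.0%.

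Among 34 tested HIF targets outside glycolysis other than the 9, 21 rose, 7 fell and 6 did not pass, with a median log2 fold change of 1.005 beside -0.017 for all tested genes. HMOX1, heme oxygenase and also a target of the antioxidant regulator NRF2, stood highest with 1261 ± 146 CPM in curcumol and 25.8 ± 4.36 CPM in control (SD, n = 3 each). TMEM45A rose by 3.76 ± 0.14 (3.16 with the GC offset) and the mitophagy receptor gene BNIP3L by 3.27 ± 0.07 on the log2 scale. LOXL2, which crosslinks collagen, fell to 47.6 ± 7.52 CPM in curcumol, against 265 ± 3.40 CPM in control (SD, n = 3 each), a log2 fold change of -2.47 ± 0.09. IGFBP3, which binds insulin-like growth factors, fell by 1.95 on the log2 scale (SE 0.12), and CCND1, cyclin D1 and a target of EPAS1 in renal carcinoma, by 1.73 (SE 0.06). Of the 20 HIF targets in glycolysis 16 rose and 3 fell, with a median of 1.19. Over all tested genes 39.4% rose and 40.3% fell. Both lists were chosen with earlier results of these data known. PFKFB4, which makes an activator of phosphofructokinase, rose by 2.40 ± 0.13 and PDK1, a kinase of pyruvate dehydrogenase, by 2.06 ± 0.09. SLC2A3, the glucose transporter GLUT3, rose by 3.94 ± 0.09. The falls were those of the lactate transporter SLC16A3 (-2.28 ± 0.20) and the phosphofructokinases PFKL (-1.25 ± 0.09) and PFKP (-0.33 ± 0.06). With the GC offset SLC16A3 stood at -1.58, PFKL at -0.51 and PFKP at 0.16, where PFKP passed as higher (edgeR adjusted p = 0.0066). Some of these genes and of those of the HIF system that follow share exonic stretches with a gene on the other strand. The longest are those of CCND1 (497 bases with LTO1), SLC16A3 (482 with CSNK1D), PDK1 (445 with a gene known by a clone name only), BNIP3L (330 with PNMA2) and HIF1AN (325 with NDUFB8). Without a stated use of strand, reads from these shared bases cannot be assigned to either gene.

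**Figure D4:**
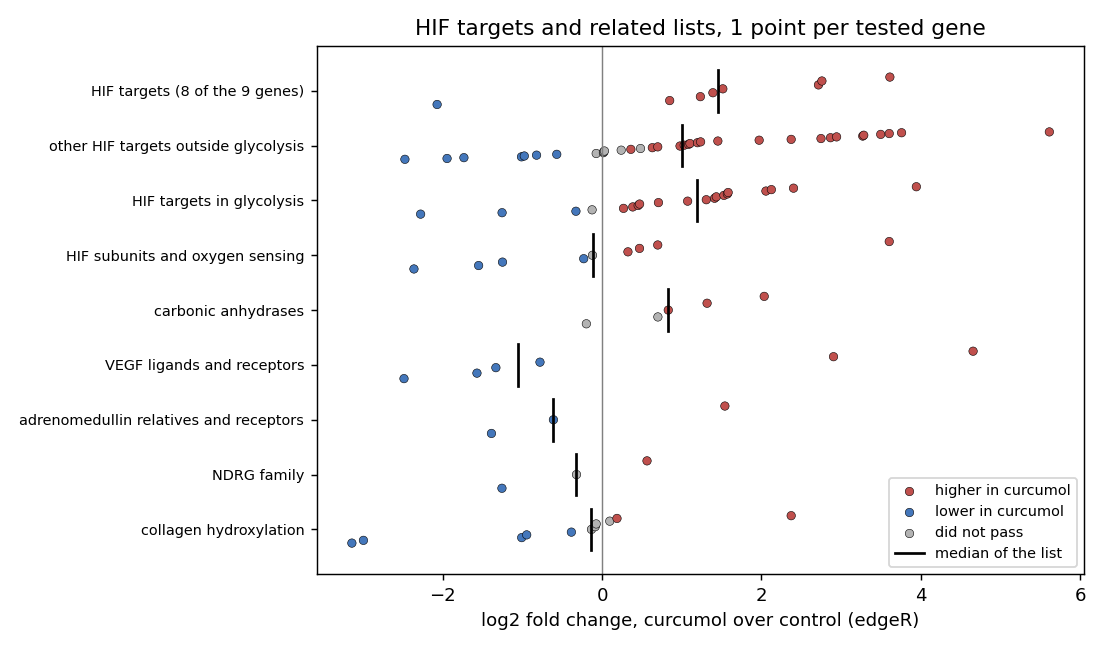
Log2 fold changes (curcumol over control) of the tested genes in each list, 1 point per gene, coloured by the edgeR call, with the list's median as a black line. The 8 tested targets have a median of 1.45, the other HIF targets outside glycolysis of 1.005 and those in glycolysis of 1.19, and the lists of relatives scatter on both sides of 0.

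The mRNAs of the HIF system itself moved both ways, with 4 of 9 tested genes higher, 4 lower and 1 that did not pass, or 2 higher with library totals. The main counts are near the shares over all tested genes, 39.4% higher and 40.3% lower. EPAS1, the alpha subunit of HIF most tied to renal carcinoma, fell to 169 ± 2.62 CPM in curcumol, against 401 ± 11.7 CPM in control (SD, n = 3 each), a log2 fold change of -1.25 ± 0.05. HIF1A rose by 0.32 ± 0.06 but stood at 0.060 with library totals, where it did not pass. With a GC offset HIF1A stood at -0.33 and passed as lower (edgeR adjusted p = 1.15e-06). ARNT stood at -0.12 and did not pass, but it passed as lower with library totals (-0.39, edgeR adjusted p = 0.000113) and with the GC offset (-0.20, edgeR adjusted p = 0.0113). Its relative ARNT2 fell by 2.36 (SE 0.12), VHL stood at -0.23 ± 0.08 (edgeR adjusted p = 0.0105), and HIF3A had 0 counts in every library. HIF1AN, which encodes the asparaginyl hydroxylase that blocks HIF activity, fell by 1.55 (SE 0.07). Of the EGLN prolyl hydroxylase genes, EGLN1 rose by 0.70 ± 0.06 and EGLN2, which shares 2012 exonic bases with the readthrough gene RAB4B-EGLN2, by 0.47 ± 0.16. EGLN3, which like EGLN1 is itself a HIF target and also counted among the 34 above, had 20, 15 and 29 counts in curcumol, against 1, 2 and 3 in control. EGLN2 lost its call without curcumol replicate 3 (0.35, edgeR adjusted p = 0.0743) and with library totals (0.21, edgeR adjusted p = 0.251). VHL lost its call without curcumol replicate 2 (-0.20, edgeR adjusted p = 0.0535) and with an offset for exon length (-0.17, edgeR adjusted p = 0.0536). Tested against a 1.2-fold change, HIF1A, VHL and EGLN2 did not pass.

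For each of the 8 targets the genes with the most similar course over the 6 libraries were sought among 10424 well-counted genes, by the Euclidean distance between profiles of log2 CPM relative to the control mean, and the nearest is given. P4HA1 had the closest neighbour, MLLT11 (distance 0.0514), which rose by 2.70 ± 0.07. NDRG1 lay nearest to ATF3, a stress-induced transcription factor (distance 0.183, log2 fold change 3.53 ± 0.07). ADM lay nearest to TMEM81 (0.150), VEGFA to CEP76 (0.140), P4HA2 to M6PR (0.0633), ANGPTL4 to STOM (0.106) and CA12 to DENND2D (0.196). ANKRD37, with its few counts, had its nearest gene, ARMC5, at 0.410. These profiles mostly rank genes by the size of their change, since they hold 2 groups of 3 libraries.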

How the data were processed

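The deposited table holds raw, unnormalized counts for each Ensembl gene in each library. Reads were assigned to the GRCh38 (hg38) genome build, per the submitters' processing notes; which aligner and counter were used, and whether strand was used, is not given in the sources used here. Coordinates, lengths, GC content of the longest transcript and exon overlaps came from GENCODE 29 (GRCh38), which holds all 58735 identifiers.

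Groups came from the library titles, and the labels describe independent biological replicates. Genes were filtered with filterByExpr, scaled with TMM and tested on the counts with edgeR 4.0.16 (quasi-likelihood, robust) in R 4.3.3. Each SE is the size of the log2 fold change over the square root of its F statistic. Levels are mean ± SD of CPM. Replicates differed by more than sampling noise (chi-square over its degrees of freedom from 3.62 to 8.74), so none was merged. The code was tested on simulated counts. Alternatives used DESeq2 1.42.0, limma 3.58.1 and the settings given in the closing section. The permutation test used SciPy 1.17.1.

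The targets and lists were chosen with earlier results of these data known. Named were the 9 targets, all genes of the HIF system and, per list, up to 3 risen and 3 fallen genes with a mean of at least 100 counts. Other genes, among them NDRG2, FLT1, P3H1, CA5B, CA14 and UFSP2, were named after their values were seen. The likeness search took the same minimum. The planned ratio of CA9 to CA12 was not computed, because CA9 had counts of 0. With 3 libraries a group, the spread between libraries limits precision for abundant genes, and counting error does so for CA9, where 3 counts equal 0.168 to 0.177 CPM of unscaled totals. A planned renal marker is not reported here.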

Additional observations from a re-analysis of the deposited data

How the results depend on the processing

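The 8 tested targets kept their direction and their call in each of the other fits in which they were tested: DESeq2, limma-voom, library totals, size factors of the DESeq2 type, no filter, a stricter filter, the replicate block, a test against a 1.2-fold change, a fit without the 50 most abundant genes, offsets for GC content or exon length, and each library left out. Log2 fold changes ran from 3.35 to 3.80 for NDRG1, 2.49 to 3.29 for ADM, 2.27 to 2.77 for P4HA1, 1.25 to 1.84 for VEGFA, 0.97 to 1.96 for ANGPTL4, 1.02 to 1.62 for ANKRD37, 0.58 to 0.93 for P4HA2 and -2.34 to -1.85 for CA12. The stricter filter (means of 1 CPM and 50 counts or more) left ANKRD37 out, so that 6 targets rose. With library totals ANGPTL4 fell short of a 2-fold rise. Without a filter CA9 entered with a log2 fold change of 2.15 (edgeR adjusted p = 0.333). Library totals moved the median of all genes to -0.28. Signs turned with a GC offset for PFKP (0.16), HIF1A (-0.33) and ADM2 (0.10), and with library totals for P4HB (-0.079). There PFKP passed as higher (edgeR adjusted p = 0.0066) and HIF1A as lower (edgeR adjusted p = 1.15e-06), whereas ADM2 and P4HB did not pass. Against a 1.2-fold change PFKP, HIF1A, VHL, EGLN2 and P4HB did not pass. The cause of these changes was not tested. The P4HA1 to P4HA2 difference, for which leaving out libraries was added after seeing the data, ran from 1.79 to 1.94 in those fits. With the GC offset P4HA1 stood at 2.27 and P4HA2 at 0.88, closer together than in the main fit. With the replicate block 12086 genes were called, against 12076 without it. Deviations of same-numbered libraries correlated at -0.012 to 0.075, and those of different-numbered libraries at -0.076 to 0.054. With so few libraries these values cannot decide whether the numbers pair libraries. The block changed no call of a target.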

Other observations

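Of the 7 fibroblast markers, 3 stood higher in curcumol replicate 2 than in any other library and at no more than 2 counts elsewhere: COL1A2 had 1, 70 and 0 counts in the 3 curcumol libraries, against 0, 0 and 0 in control, and LUM had 0, 22 and 0, against 0, 0 and 0. DCN had 0, 11 and 0 counts in curcumol and 0, 1 and 2 in control. COL3A1 and PDGFRB were also highest in that library but were raised in all 3 curcumol libraries, and COL1A1 had 14, 66 and 27 counts in curcumol, against 100, 91 and 94 in control. Without that library the tested targets kept their calls, with log2 fold changes of 3.62 for NDRG1, 2.71 for P4HA1 and -2.15 for CA12.

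VEGFD, a lymphatic growth factor gene below the count minimum for named genes and picked out here after its values were seen, had 45, 62 and 47 counts in curcumol, against 1, 5 and 1 in control (log2 fold change 4.66 ± 0.47, edgeR adjusted p = 9.27e-09). CXCR4, a chemokine receptor and HIF target chosen in the same way, had 50, 54 and 68 counts in curcumol, against 7, 8 and 6 in control (3.28 ± 0.34).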
